A study of Mus musculus with 6 samples.

Results

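Gzma encodes granzyme A, a serine protease that killer lymphocytes store in their granules and release onto target cells. It is 1 of the 16158 genes measured here, and it was chosen by its measured level in CD8 T cells of the skin, which differed between the treatment groups. Its levels are therefore given as a description with no test. Single-cell transcriptomes were collected from skin of 6 NINJA mice, 6 to 12 weeks old, with 2 mice labelled as biological replicates in each of 3 groups. All 6 mice had skin treated with 4-OH-Tam, a tamoxifen metabolite, and all had been examined for P14 CD8 T cells, whose T cell receptor is transgenic, before sequencing. The groups are NO_AG, with the antigen off, AG, with the antigen on, and AG_CPI, with the antigen on and CPI given. The labels do not spell out CPI, its dose or its timing, do not name the skin cells that make the antigen, and give no sex or batch. With 2 mice a group, the number of mice limits the precision of every comparison.

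Granzymes enter a target cell through pores made by perforin and cleave proteins inside it. Granzyme A is a tryptase that cuts after basic residues, whereas granzyme B cuts after aspartate and activates caspases. In mouse skin the usual carriers of Gzma are natural killer cells and effector CD8 T cells, and resident memory CD8 T cells can keep cytotoxic transcripts while they stay in the tissue.

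The gene (identifier 14938) lies on the minus strand of mouse chromosome 13, at chr13:113093824-113100981 in GRCm38.p6, and its first annotated transcript has 5 exons. Gzmk, which encodes the related tryptase granzyme K, is the nearest other granzyme gene, 70648 bases away at chr13:113171630-113180965. Gpx8, an endoplasmic reticulum peroxidase gene, lies on the other side at 47393 bases, and Esm1, the endocan gene, lies beyond Gzmk at 108677 bases. The 250 bases before the start of Gzma (chr13:113100982-113101231, minus strand) are shown with those of Gzmb (chr14:56262335-56262584, minus strand) and Gzmk (chr13:113180966-113181215, minus strand), because the levels of Gzma separated all 3 groups, whereas those of Gzmb and Gzmk overlapped between AG and AG_CPI. All are from RefSeq on GRCm38.p6, written from 5′ to 3′ on the gene's strand, with capitals at matches on either strand to any of 4 motif cores: TGTGGT of RUNX factors, GGTGTG of T-box factors, CACCTG of ZEB-type E-box factors and CTTTGT of TCF factors.
Gzma: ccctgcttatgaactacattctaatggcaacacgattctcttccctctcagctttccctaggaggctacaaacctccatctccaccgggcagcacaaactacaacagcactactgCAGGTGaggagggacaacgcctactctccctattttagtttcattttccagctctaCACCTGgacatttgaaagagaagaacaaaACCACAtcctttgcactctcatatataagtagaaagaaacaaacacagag
Gzmb: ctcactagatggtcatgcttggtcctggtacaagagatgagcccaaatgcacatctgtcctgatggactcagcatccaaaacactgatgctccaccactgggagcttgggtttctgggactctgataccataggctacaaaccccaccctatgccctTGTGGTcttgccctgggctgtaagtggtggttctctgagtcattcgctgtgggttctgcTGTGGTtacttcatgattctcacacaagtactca
Gzmk: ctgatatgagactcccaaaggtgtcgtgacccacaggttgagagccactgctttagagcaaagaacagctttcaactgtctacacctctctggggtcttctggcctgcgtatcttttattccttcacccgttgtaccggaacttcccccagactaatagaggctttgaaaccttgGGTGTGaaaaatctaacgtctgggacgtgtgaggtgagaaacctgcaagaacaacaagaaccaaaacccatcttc
The Gzma window holds 1 RUNX core, 50 bases before the start, and 2 E-box cores, 79 and 135 bases before it. The Gzmb window holds 2 RUNX cores and the Gzmk window 1 T-box core. Over 32851 promoter windows of the same length, 14.045% hold the RUNX core, 16.3% the T-box core, 17.2% the E-box core and 16.5% the TCF core. These matches describe the letters of the windows and were not tested against binding.

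Between 1736 and 4972 cells were deposited per library, with 5650384 to 23845530 unique molecular identifiers (UMIs) in all and a median of 2527 to 4744 per cell. Between 44 and 119 cell barcodes of a library also occurred in another library. A cell counted as a CD8 T cell when its cluster was alpha-beta T-like, it held Cd8a or Cd8b1 UMIs, and it held no UMI of Cd4 and none of Trdc. Of these cells 91.7% to 98.0% per library had a UMI of Cd3e, a subunit of the T cell receptor complex, and 89.5% to 98.3% had Cd8b1, shares that the definition itself favours, and at most 0.138% had Ncr1, a natural killer cell receptor. AG_CPI 1 stood apart from the other libraries. Outside the lymphocyte clusters, 2.20% of its cells had a UMI of Xist, which is transcribed from the inactive X chromosome, and 16.2% had a UMI of Ddx3y, a Y-linked gene, against 66.9% to 86.3% with Xist and none with Ddx3y in the other 5 libraries. In its CD8 T cells 53.9% had Xist, so these cells were not uniform by this measure, and Gzma levels by cell class are given below per mouse.

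In CD8 T cells the Gzma level was higher with antigen than without it, and higher again with antigen and CPI. Levels are given as the mean over cells of UMIs per 10000 UMIs of the cell. The level was 1.80 and 2.32 in NO_AG 1 and 2, 17.2 and 15.1 in AG 1 and 2, and 86.6 and 75.8 in AG_CPI 1 and 2. Both mice of each group lay above both mice of the group before it, with no overlap. The mean of AG was 7.85-fold that of NO_AG, with ratios of 6.52 to 9.57 between single mice. The mean of AG_CPI was 5.02-fold that of AG, with single-mouse ratios of 4.41 to 5.72, and 39.4-fold that of NO_AG, with ratios of 32.6 to 48.2. These comparisons share mice, so they are not independent of each other.

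**Figure D1:**
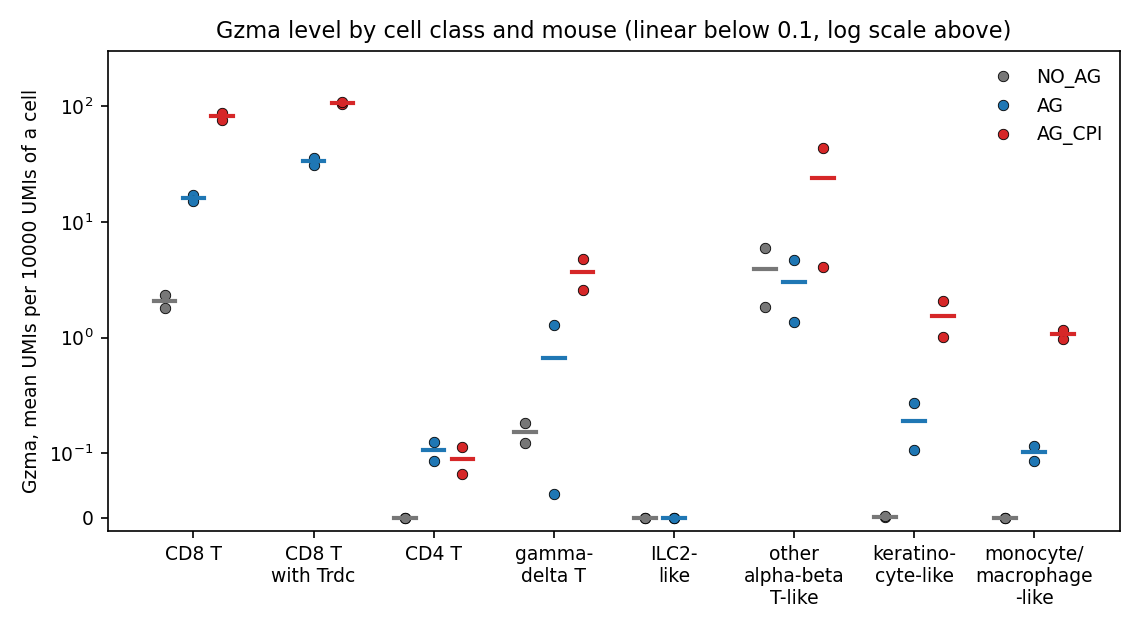
Mean Gzma level (UMIs per 10000 UMIs of the cell, log axis) by cell class, with 1 point per mouse coloured by group. The CD8 T points climb from about 2 in NO_AG to between 75.8 and 86.6 in AG_CPI, while CD4 T cells stay at or below 0.125.

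More cells had Gzma, and those that had it held more. The share of CD8 T cells with at least 1 Gzma UMI was 5.65% and 3.92% in NO_AG, 23.4% and 34.7% under AG, and 64.5% and 66.3% under AG_CPI, of 124, 383, 760, 542, 727 and 824 cells. The exact 95% binomial intervals, which cover counting error only, ran from 2.21% to 11.3% over the NO_AG mice and from 60.9% to 69.5% over the AG_CPI mice. Median depths were alike, at 2236 to 2735 UMIs per cell, and after each cell was thinned to 1500 UMIs the shares were 4.63%, 3.36%, 20.7%, 29.8%, 61.9% and 62.0% in the same order. Among positive cells the median level was 18.5 and 17.5 in NO_AG, 36.7 and 21.2 under AG, and 90.2 and 72.0 under AG_CPI. Positive cells of AG 2 were thus near those of NO_AG in this median, whereas positive cells of both AG_CPI mice were above all 4 other mice.

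The spread within a mouse was wide. In NO_AG 1 a single cell held 65.2% of the Gzma UMIs of all CD8 T cells, and in NO_AG 2 a single cell held 34.4%, so the NO_AG levels rest on few cells. The tenth of CD8 T cells with most Gzma held all Gzma UMIs in both NO_AG mice, 90.1% and 76.1% under AG, and 52.7% and 54.6% under AG_CPI. At 100 or more UMIs per 10000, a level at which Gzma takes at least 1 in 100 UMIs of the cell, stood 0.81% and 0.78% of CD8 T cells in NO_AG, 6.84% and 3.51% under AG, and 29.99% and 25.97% under AG_CPI. The median CD8 T cell had no Gzma UMI in NO_AG and AG and had a level of 19.8 and 18.7 in AG_CPI. The highest single cell reached 988 in AG_CPI 1 and 759 in AG_CPI 2.

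**Figure D2:**
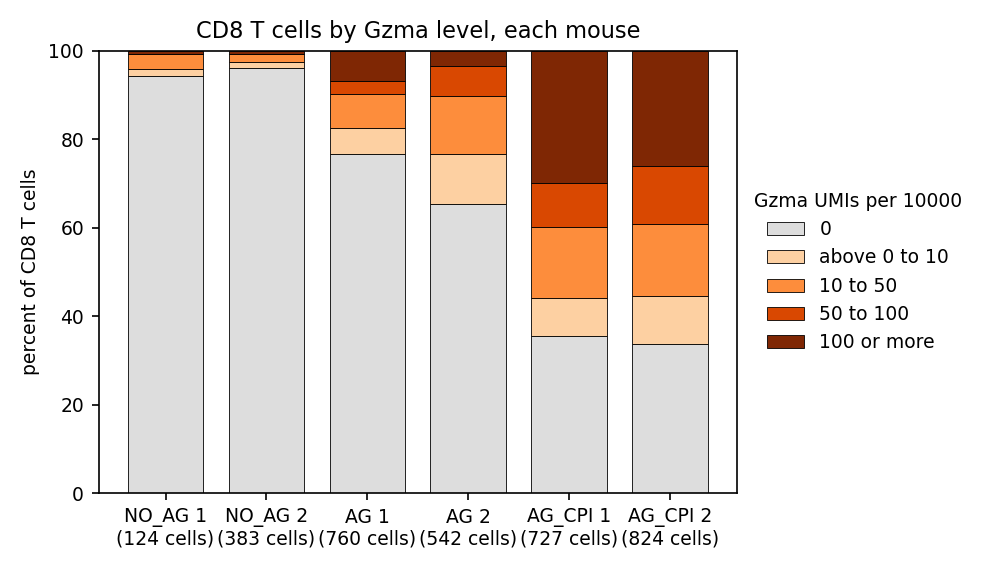
Share of CD8 T cells (percent) in 5 ranges of Gzma level per mouse, with stacked bars that sum to 100%. Cells with no Gzma UMI make up 94.4% and 96.1% of the NO_AG bars and 35.5% and 33.7% of the AG_CPI bars, and the range at 100 and above takes 29.99% and 25.97% of the AG_CPI bars.

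CD8 T cells were also the main holders of Gzma in each library with antigen. CD8 T cells with or without a Trdc UMI held 97.2% and 83.3% of the library's Gzma UMIs in AG 1 and 2, and 96.7% and 97.5% in AG_CPI 1 and 2. In NO_AG 1 and 2 they held 28.5% and 50.1% of only 312 and 653 Gzma UMIs, and 57.7% and 44.0% sat in alpha-beta T-like cells with neither a CD8 nor a CD4 UMI or with signs of both. The totals were 9442 and 6600 Gzma UMIs under AG, and 29776 and 34559 under AG_CPI. AG 2 differed from the other 5 libraries in that 11.8% of its Gzma UMIs lay outside the lymphocyte clusters, against 0.962% to 2.03%.

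The P14 receptor uses the beta segment Trbv13-3, so a UMI of this segment enriches for P14 cells, although host T cells can use it too. CD8 T cells with Trbv13-3 numbered 2 and 11 in NO_AG, too few for a level, then 277 and 283 in AG and 402 and 498 in AG_CPI. Their Gzma level was 37.2 and 20.1 under AG, and 89.3 and 83.8 under AG_CPI, with 46.6%, 47.3%, 68.7% and 73.9% of cells positive in that order. The AG_CPI mean was 3.02-fold the AG mean, with single-mouse ratios of 2.25 to 4.45 and no overlap. These cells thus had the gene at a high level with antigen alone.

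CD8 T cells without a Trbv13-3 UMI had a Gzma level of 0.968 and 2.39 in NO_AG, 5.71 and 9.77 under AG, and 83.3 and 63.6 under AG_CPI. Their shares of positive cells were 4.92%, 4.03%, 10.1%, 20.8%, 59.4% and 54.6%. From AG to AG_CPI the mean differed 9.49-fold, with single-mouse ratios of 6.52 to 14.6 and no overlap. Within a mouse, the level with Trbv13-3 exceeded that without it on the log2 scale by 2.71 in AG 1, 1.04 in AG 2, 0.10 in AG_CPI 1 and 0.40 in AG_CPI 2.

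Cells without a Trbv13-3 UMI were a mixture of cells with another beta segment and cells in which none was found. Cells in which another beta segment was found had a Gzma level of 1.21 and 2.88 in NO_AG, 2.73 and 4.60 under AG, and 37.8 and 36.6 under AG_CPI, from 86, 300, 365, 122, 120 and 189 cells. For these cells NO_AG and AG overlapped, with a ratio of means of 1.79 and single-mouse ratios from 0.947 to 3.81. AG_CPI lay above both, at 10.1-fold the AG mean, with single-mouse ratios of 7.95 to 13.8. Their share of positive cells was 4.65%, 4.33%, 6.58% and 10.7% in NO_AG and AG, and 45.0% and 43.4% in AG_CPI. Cells with no beta segment found had a level of 0.400 and 0.351 in NO_AG, 14.9 and 14.4 under AG, and 110 and 101 under AG_CPI, and so did not overlap between any of the groups.

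Cells that met the CD8 definition but also had a UMI of Trdc, the delta constant segment, were held apart from the CD8 T class. Their Gzma level was above that of the CD8 T class in each AG and AG_CPI mouse. There were 3 and 6 of them in NO_AG, 217 and 227 under AG, and 391 and 390 under AG_CPI. The level was 35.4 and 31.2 under AG, and 105 and 108 under AG_CPI, with 46.5%, 56.4%, 77.2% and 76.4% positive. A Trbv13-3 UMI was found in 196 of the 217 cells of AG 1, 177 of the 227 of AG 2, 249 of the 391 of AG_CPI 1 and 321 of the 390 of AG_CPI 2. These differed less from the CD8 T cells with Trbv13-3, with ratios of levels of 0.958 in AG 1, 1.35 in AG 2, 1.16 in AG_CPI 1 and 1.19 in AG_CPI 2. All cells with Trdc together held 42.3%, 39.5%, 41.4% and 39.7% of their library's Gzma UMIs in the same order. With these cells counted as CD8 T cells, the log2 ratio of means was 3.34 from NO_AG to AG and 2.12 from AG to AG_CPI, in place of 2.97 and 2.33.

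**Figure D3:**
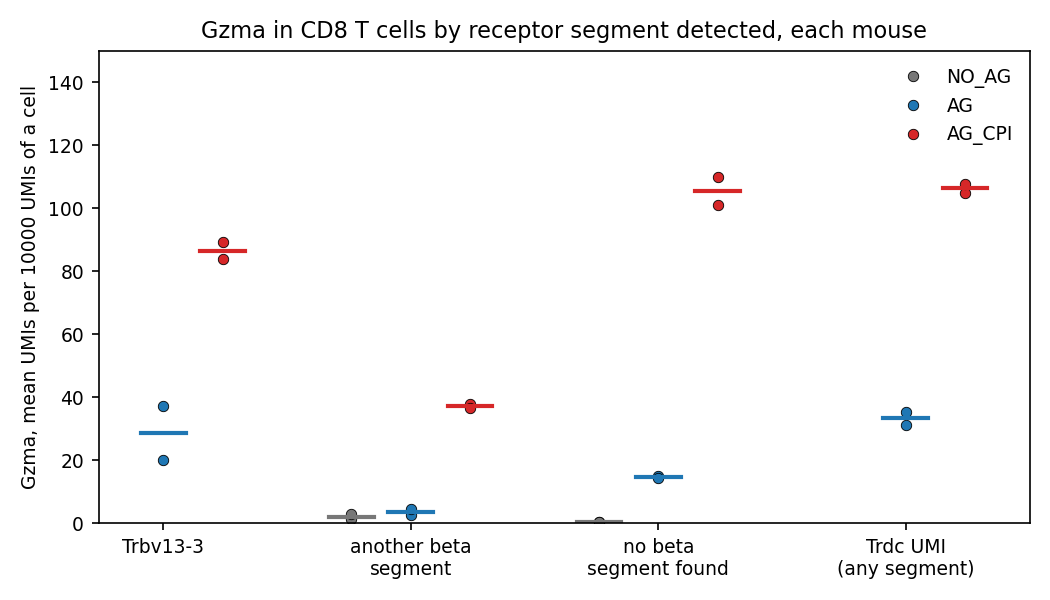
Gzma level (UMIs per 10000, linear axis) in CD8 T cells split by receptor segment found, with 1 point per mouse coloured by group. The few NO_AG cells with Trbv13-3 or Trdc are not drawn. Cells with another beta segment lie at 1.21 to 4.60 in NO_AG and AG and at 36.6 and 37.8 in AG_CPI, whereas cells with Trbv13-3 already lie at 20.1 and 37.2 in AG.

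In AG_CPI 1 the receptor split moved with the sex-linked transcripts. Xist was found in 68.4% of its CD8 T cells with Trbv13-3, in 67.0% of those with Trdc, in 54.1% of those with no beta segment found and in 5.0% of those with another beta segment. In AG_CPI 2 the same shares ran from 65.7% to 79.4%. Of the 120 cells of AG_CPI 1 with another beta segment, 114 had no Xist UMI, and these had a Gzma level of 39.7, with 53 of them positive, against 0.639 in the cells with Xist. Over all CD8 T cells of AG_CPI 1 the level was 100.2 with Xist and 70.7 without it, and in AG_CPI 2 it was 73.3 and 83.0. Among cells of AG_CPI 1 with no beta segment found it was 136 and 79.0, and among those with Trbv13-3 it was 87.9 and 92.2. The part of this mixture in the Gzma levels of AG_CPI 1 was not tested.

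The CD8 T cells fell mainly into 4 clusters, which were made without Gzma among the clustering genes, although genes that vary with it were used. Cluster 27 was led by Ccl1, Gzma itself, Gzmf, Trav14-1, Trbv13-3 and Klrc1. The Gzma level there was 49.5 and 31.1 under AG, and 115 and 95.3 under AG_CPI. In cluster 26, led by Ccl5, Gimap7 and Gzmk, it was 19.7 and 19.4 under AG, and 43.7 and 39.3 under AG_CPI. There the NO_AG mice, with 5 and 4 cells, had 31.3 and 74.6, both above the AG mice. Cluster 15 was led by the cell cycle genes Asf1b, Nusap1 and Birc5, with Gzmk and Gzma among the leading genes. The Gzma level there was 24.1 and 13.6 under AG, and 65.5 and 77.1 under AG_CPI. Both AG_CPI mice exceeded both AG mice in each of these 3 clusters. In NO_AG the level was 0 and 4.02 in the 19 and 57 cells of cluster 15, and 1.40 in the 11 cells of cluster 27 in NO_AG 2, where NO_AG 1 had none. Cluster 6 was led by Gzmc, Trbv3, Cd40lg and Cd160. In cluster 6 the level was 0.675 and 1.12 in NO_AG, 1.61 and 1.83 under AG, and 1.11 and 13.4 under AG_CPI. There only AG_CPI 2 was above the AG mice, and AG_CPI 1 lay below them. Different clusters held most CD8 T cells in different groups: cluster 6 held 79.0% and 80.7% in NO_AG, and cluster 27 held 58.9% and 61.8% in AG_CPI.

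**Figure D4:**
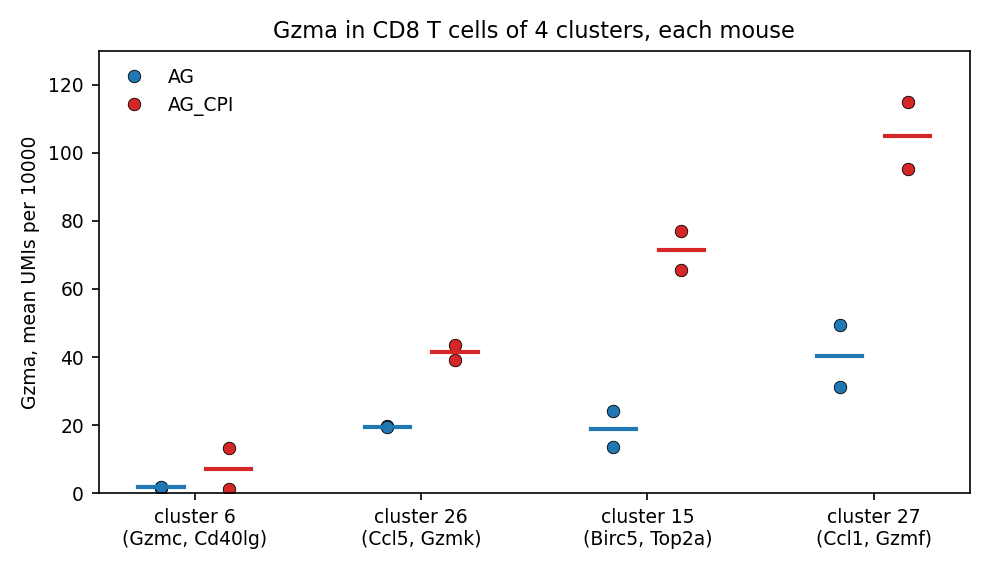
Gzma level (UMIs per 10000, linear axis) in CD8 T cells of each main cluster, with 1 point per AG or AG_CPI mouse coloured by group. The NO_AG mice are not drawn. In clusters 27, 26 and 15 both AG_CPI points lie above both AG points, and in cluster 6 the levels stay at or below 1.83 except for AG_CPI 2 at 13.4.

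CD4 T cells had almost no Gzma. Their level was 0 and 0 in NO_AG, 0.125 and 0.088 under AG, and 0.068 and 0.114 under AG_CPI, from 37, 49, 168, 116, 29 and 52 cells. With no positive cell, the NO_AG mice allow a share of cells with a Gzma UMI of at most 8.11% and 6.12%, which limits detection and not expression. In AG and AG_CPI 1.19%, 3.45%, 3.45% and 5.77% of them had a Gzma UMI. In keratinocyte-like cells, taken here as the background, 2.59%, 5.58%, 15.7% and 20.1% had one. Whether these cells make granzyme A was not tested. Median depths were 2367 to 3098.5 UMIs in these CD4 T cells and 2509 to 7315.5 in the keratinocyte-like cells. After thinning to 1500 UMIs the CD4 shares were 0.918%, 1.32%, 1.01% and 1.72%, and those of keratinocyte-like cells 0.982%, 3.82%, 11.0% and 11.5%. The CD4 shares were at or below those of keratinocyte-like cells in all 4 libraries. In mean level the CD4 T cells of AG 1, at 0.125, lay above the keratinocyte-like cells of that mouse, at 0.108. In the other mice they lay below them. In the same CD4 T cells the level of Gzmb was 2.11 and 7.03 under AG, and 2.49 and 4.16 under AG_CPI, against 0.290 and 0.471 in NO_AG.

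Gamma-delta T cells, of which 87.0% to 99.2% per library had a UMI of Trdv4, a segment of skin-resident gamma-delta T cells, numbered 562 and 409 in NO_AG, 280 and 131 under AG, and 12 and 23 under AG_CPI. Their Gzma level was 0.184 and 0.123 in NO_AG, 0.036 and 1.29 under AG, and 2.60 and 4.81 under AG_CPI. These values come from 1, 5, 2, 4, 2 and 3 positive cells. The thinned shares in AG_CPI, 16.5% and 10.9%, lay on either side of the keratinocyte-like shares of 11.0% and 11.5%, and their exact 95% intervals before thinning reached from 2.09% to 48.4% and from 2.78% to 33.6%. In NO_AG the thinned shares were 0.178% and 0.903%, from 1 and 5 cells, against 0.0104% and 0.0328% of keratinocyte-like cells. The mean level was above that of the keratinocyte-like cells of the same mouse in each mouse but AG 1. It rested on few cells, since 1 cell held all 39 Gzma UMIs of NO_AG 1 and 1 cell held 91.1% of the 45 of AG_CPI 2. ILC2-like cells, innate lymphocytes that make type 2 cytokines, had no Gzma UMI in 100, 77, 87 and 24 cells of the NO_AG and AG mice, numbers that allow a share of cells with a Gzma UMI of at most 3.0%, 3.90%, 3.45% and 12.5%.

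The remaining alpha-beta T-like cells, with neither CD8 nor CD4 UMIs or with signs of more than 1 lineage, had a Gzma level of 1.84 and 5.98 in NO_AG, 1.36 and 4.73 under AG, and 43.5 and 4.07 under AG_CPI. AG_CPI 1 was high and AG_CPI 2 lay within the range of the other groups. The share of positive cells was 2.99% and 4.17% in NO_AG, 4.33% and 9.61% under AG, and 31.4% and 27.5% under AG_CPI, higher in both AG_CPI mice than in the other 4. Without the cells that had a UMI of Ncr1 the level was 1.06 and 3.36, 1.38 and 3.70, and 37.0 and 4.14 in the same order, so that AG_CPI 2 then lay just above the NO_AG and AG mice. Among lymphocytes without T cell genes, the few with a UMI of Ncr1, 8, 4, 5, 9, 4 and 3 cells, had levels of 30.5, 97.5, 0, 38.8, 115 and 3.58. In both NO_AG mice the Ncr1 cells thus had a higher mean than the CD8 T cells, from at most 8 cells. Monocyte/macrophage-like cells had a level of 0 in both NO_AG mice, 0.117 and 0.089 under AG, and 0.974 and 1.17 under AG_CPI, and keratinocyte-like cells 0.001, 0.002, 0.108, 0.274, 2.09 and 1.01. Both cell types lay far below the CD8 T cells of the same mouse. Subtraction of the keratinocyte-like level from the CD8 T level left the log2 ratios of means at 2.96 and 2.32.

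Gzma was a minor granzyme transcript of CD8 T cells in NO_AG and the leading one in AG_CPI. UMIs of the 5′ kit count 1 end of each molecule, so levels of genes can be set side by side with no scaling by length. Of the summed level of all granzymes with a measured value, Gzma held 18.7% and 23.1% in NO_AG, 58.3% and 47.1% under AG, and 81.5% and 82.3% under AG_CPI. Gzmb was the leading granzyme in NO_AG, at 4.61 and 4.15, and its level was 9.23 and 13.4 under AG, and 14.7 and 11.3 under AG_CPI. Gzmk was at 0.547 and 0.137, 1.61 and 3.13, and 2.77 and 2.21 in the same order. The levels of Gzmb and Gzmk separated NO_AG from the other groups but overlapped between AG and AG_CPI. Gzmc, a granzyme of the cluster around Gzmb on chromosome 14, was at 2.64 and 3.40 in NO_AG, 1.12 and 0.167 under AG, and 1.42 and 1.95 under AG_CPI. It was thus lowest under AG, opposite to Gzma from NO_AG to AG and in the same direction from AG to AG_CPI. Gzmd and Gzme had no UMI in any CD8 T cell, and Gzmm was below 0.051 in every mouse.

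**Figure D5:**
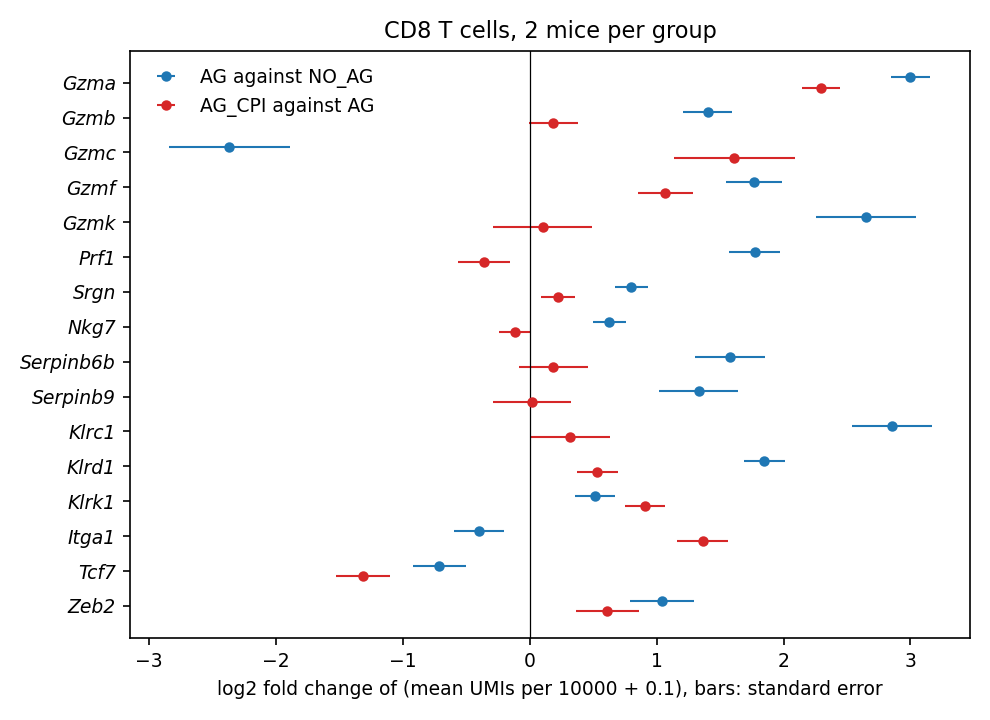
Log2 fold change of the level of Gzma and other genes of the cytotoxic programme in CD8 T cells, with bars for the standard error. Points are coloured by comparison, AG against NO_AG or AG_CPI against AG. Gzma is higher at both steps, Gzmb and Gzmk change little from AG to AG_CPI, and Tcf7 falls at that step.

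Genes of the granule pathway were taken from 8 lists that hold 90 genes beside Gzma, of which 70 passed the filter on low values in CD8 T cells. From NO_AG to AG, 14 of the 70 rose and 3 fell, with a median log2 change of 0.30 against 0.00 for all genes (limma, Benjamini-Hochberg adjusted p at most 0.05). Over all 7237 genes 1.58% were called, 1.22% higher and 0.359% lower. Of the 4 granzymes tested, Gzmb rose by 1.40 ± 0.19 (SE, adjusted p = 0.0022), Gzmk by 2.65 ± 0.39 (adjusted p = 0.0039) and Gzmf by 1.77 ± 0.22 (adjusted p = 0.00093), while Gzmc fell by 2.37 ± 0.48 (adjusted p = 0.027). Of 9 genes of granule loading and the pore, 3 rose: Prf1, which encodes perforin, by 1.77, Srgn, the proteoglycan on which granzymes are packed, by 0.80, and Nkg7, a granule membrane protein, by 0.63. Of 12 genes of granule release, Vamp8, a fusion protein, rose by 0.81. Serpinb6b, a serpin that inhibits granzyme A, rose by 1.58, from 0.108 and 0.101 to 0.364 and 0.647. Among killer cell receptors, Klrc1 (NKG2A) rose by 2.85, Klrd1 (CD94, its partner) by 1.85 and Il2rb, a subunit of the interleukin-2 receptor, by 0.79. The adaptors Fcer1g and Tyrobp fell by 1.13 and 1.36.

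Among the chemokines of activated T cells, Ccl3 rose by 3.73, Ccl4 by 2.38 and Ccl5 by 1.78, the last from 35.9 and 34.8 to 103 and 129. None of 10 SET complex and other granzyme A substrates and none of 11 cytotoxic fate regulators passed the test in this comparison. Of the 17 calls, 8 held without each mouse in turn, those of Ccl3, Ccl4, Ccl5, Gzmb, Gzmf, Klrc1, Klrd1 and Prf1. Over all genes the count of 114 was 43 without AG 2, 51 without NO_AG 1 and 74 without AG_CPI 1.

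Between AG and AG_CPI few listed genes moved. Of 70 tested, 2 rose and 1 fell, against 0.166% of all 7237 genes (12 genes, 0.0829% in each direction). Itga1, the alpha chain of a collagen-binding integrin of resident T cells, rose by 1.36 ± 0.20 (SE, adjusted p = 0.018), from 0.712 and 0.513 to 1.89 and 1.60. Klrk1, which encodes the activating receptor NKG2D, rose by 0.91 ± 0.16 (adjusted p = 0.048), from 2.52 and 2.23 to 4.41 and 4.83. Tcf7, a transcription factor of naive and memory T cells, fell by 1.31 ± 0.21 (adjusted p = 0.036), from 0.873 and 0.600 to 0.263 and 0.214. None of the 3 calls held without each mouse in turn, and the count of 12 was 1 without AG_CPI 1, 6 without AG_CPI 2 and 5 without either NO_AG mouse. The other granzymes did not pass the test: Gzmb differed by 0.19, Gzmk by 0.10, Gzmc by 1.61 (adjusted p = 0.48) and Gzmf by 1.07 (adjusted p = 0.12) on the log2 scale. Prf1 differed by -0.36.

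From NO_AG to AG_CPI, 21 of the 70 listed genes rose and 6 fell, beside 3.43% of all 7237 genes (2.16% higher and 1.27% lower). Gzmb rose by 1.59, Gzmk by 2.75 and Gzmf by 2.84, and Prf1 by 1.41. Of the killer cell receptors and adaptors 7 of 11 rose, with Klrc1 by 3.17, Klrd1 by 2.38, Klrk1 by 1.42 and Klrc2 by 1.33 among them, and 2 fell, Fcer1g by 1.46 and Tyrobp by 1.91. Serpinb9, a serpin that inhibits granzyme B, rose by 1.35, from 0.061 and 0.077 to 0.451 and 0.225. Of the fate regulators, Zeb2, a transcriptional repressor that promotes effector cell differentiation, rose by 1.65 and Bhlhe40, a factor of resident cells, by 1.29, whereas Tcf7 fell by 2.02, Id3 by 1.46 and Zfp683 (Hobit) by 1.36. Rab27a, a GTPase that docks granules, fell by 0.95. Of these 27 calls 11 held without each mouse in turn: Ccl4, Ccl5, Gzmb, Gzmf, Gzmk, Klrc1, Klrd1, Klrk1, Srgn, Tcf7 and Tyrobp. Among the fate regulators only Tcf7 held, and the calls of Prf1, Serpinb9 and Rab27a were lost. The count of 248 was 63 without AG_CPI 1, 100 without AG_CPI 2 and 115 without NO_AG 1.

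The listed genes were also tested by receptor segment. In CD8 T cells without Trbv13-3, 6 of 69 listed genes rose and 1 fell from NO_AG to AG, beside 0.717% of 7110 genes (0.591% higher and 0.127% lower). Ccl3 rose by 2.76, Ccl4 by 1.70, Ccl5 by 0.98, Gzmk by 1.85, Klrc1 by 1.95 and Klrd1 by 1.32, and Gzmc fell by 2.58. Gzmb did not pass the test there, with levels of 4.61 and 4.16 in NO_AG against 4.21 and 10.4 in AG. From NO_AG to AG_CPI, 16 rose and 7 fell in these cells, beside 2.76% of genes (1.66% higher and 1.1% lower), with Gzmb up by 1.54, Prf1 by 1.36 and Serpinb6b by 2.32, and with Tnf down by -1.79 and Il2 by -2.43. The calls of Ccl3 and Ccl4 in the first of these comparisons and 12 of the 23 in the second held without each mouse in turn. In the second, that of Serpinb6b was among the 12, and those of Gzmb, Prf1, Tnf and Il2 were not. The count of 51 genes in the first was 20 without NO_AG 1, 24 without NO_AG 2 and 105 without AG 1, and the count of 196 in the second was 105 and 118 without either NO_AG mouse, 311 and 305 without either AG mouse and 81 without AG_CPI 1.

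The CPI step gave other calls with Trbv13-3 than without it. Without Trbv13-3, 2 of 69 listed genes rose and 3 fell between AG and AG_CPI, beside 0.563% of 7110 genes (0.253% higher and 0.309% lower). Klrk1 rose by 1.07 and Klrd1 by 0.98, and Tcf7 fell by 1.73, Id3 by 1.76 and Il2 by 2.54. Of these calls that of Tcf7 held without each mouse in turn, and the count of 40 genes was 9 without AG_CPI 1, 89 without AG 2 and 26 without either NO_AG mouse. With Trbv13-3, 3 of 70 listed genes rose and 4 fell, beside 0.999% of 7006 genes (0.657% higher and 0.343% lower). Itgae (CD103), the integrin that holds T cells in epithelium, rose by 2.17, from 1.39 and 0.282 to 2.72 and 4.08. Itga1 rose by 1.69 and Hopx, a cofactor of effector T cells, by 0.90. In the same cells Ccl3 fell by 1.81, Ccl4 by 0.94, Ccl5 by 1.05 and Prf1 by 0.99. The Prf1 level was 3.31 and 2.67 in AG and 1.53 and 1.44 in AG_CPI, while Gzma in these cells went from 37.2 and 20.1 to 89.3 and 83.8. The calls of Ccl5 and Itga1 held without each mouse, and the count of 70 genes was 6 without AG_CPI 2, 35 without AG_CPI 1, 119 without AG 2 and 235 without AG 1.

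The test of the difference itself, between the CPI step with and without Trbv13-3 and with each mouse as a block, called 19 of 70 listed genes, 8 higher and 11 lower, beside 2.54% of 7411 genes (1.30% higher and 1.24% lower). The change was lower with Trbv13-3 for Gzmb (by -1.25), Gzmk (-1.33), Prf1 (-1.38), Serpinb6b (-1.53), Klrc1 (-1.35) and Ccl5 (-1.75). It was higher for Itgae (1.99), Tcf7 (1.92), Id3 (2.15) and Il2 (2.59). With Trbv13-3 the AG levels were 0.203 and 0.108 for Tcf7, 0.199 and 0.086 for Id3, and 0.173 and 0 for Il2. These lie near the pseudocount of 0.1, which left these genes little room to fall with Trbv13-3. Without Trbv13-3, Il2 went from 1.31 and 0.197 in AG to 0 and 0.030 in AG_CPI. In levels, Gzmb was at 18.0 and 16.1 in AG with Trbv13-3 and at 4.21 and 10.4 without it, and at 15.2 and 11.6 against 14.1 and 10.9 in AG_CPI. Of the 19 calls that of Il2 held without each mouse, and the count of 188 genes was 19 without AG_CPI 2, 67 without AG_CPI 1 and 364 without AG 2. With no mouse block 3 genes were called and none of the 19 was among them. Averaged over both groups, none of the 70 listed genes differed between cells with and without Trbv13-3 in limma, where 0.175% of 7411 genes were called (13 genes, or 18 by voom, and 533 at an unadjusted p under 0.05).

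In CD4 T cells the share of cells with Gzma was at or below that of keratinocyte-like cells. There Gzmb rose from NO_AG to AG_CPI by 2.79 ± 0.49 (SE, adjusted p = 0.040). Ccl3, Ccl4 and Ccl5 rose as well, while Tcf7 fell by 3.13, from 8 and 12 UMIs in NO_AG to 0 and 1 in AG_CPI. Of these 5 calls that of Ccl4 held without each mouse in turn, and those of the other 4 did not. In all 17 of 4400 genes (0.386%; 0.341% higher and 0.0455% lower) were called, and 1 without either NO_AG mouse, 3 without AG_CPI 1 and 4 without AG_CPI 2. The Ccl4 level was 0 in both NO_AG mice, 4.26 and 5.23 under AG, and 42.3 and 46.0 under AG_CPI, and its calls held without each mouse in all 3 comparisons. It was the listed gene called from NO_AG to AG, where 0.0455% of genes were called, all of them higher, and from AG to AG_CPI, where it was the 1 gene called (0.0227%). In gamma-delta T cells, of 7297 genes 8.51% were called from AG to AG_CPI (8.48% lower), around a median log2 change of -0.55 over all genes, and all 5 listed genes called fell: Gnptab, Hmgb2, Id3, Vamp7 and Xrcc6. With the 12 and 23 cells of AG_CPI, 4 of these 5 genes had no UMI there, and no gene was called with a pseudocount of 0.5 or without either NO_AG mouse. From NO_AG to AG_CPI 11.8% of genes were called in these cells (0.151% higher and 11.7% lower), and the 5 listed genes called, Gnptab, Hmgb2, Id3, Il2 and Vamp7, fell, all calls that were lost without either NO_AG mouse.

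Within CD8 T cells of a mouse, Gzma was uneven across cells that held other genes of the programme. Cells with a Gzmb UMI had a Gzma level of 34.1 against 5.61 without one in AG 1, 22.5 against 2.57 in AG 2, 109 against 40.1 in AG_CPI 1 and 104 against 34.0 in AG_CPI 2. Cells with Gzmb also had a deeper median in each of these libraries, 3206 against 2432 UMIs in AG 1. Cells with a Tcf7 UMI had a Gzma level of 0.762 against 20.7 without it in AG 1, 0.080 against 17.2 in AG 2, 5.14 against 90.5 in AG_CPI 1 and 14.6 against 78.9 in AG_CPI 2. Tcf7-positive cells were thus low in Gzma in every mouse with antigen.

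Itgae divided the groups. In AG, cells with an Itgae UMI had a Gzma level of 18.3 against 16.5 without it in AG 1 and 10.3 against 16.2 in AG 2, so the sign differed between mice. In AG_CPI the levels were 142 against 59.8 in AG_CPI 1 and 106 against 45.2 in AG_CPI 2, higher with Itgae in both. After thinning to 1500 UMIs, 76.8% against 54.7% and 75.6% against 48.1% of these cells had Gzma. For Gzmc the level was higher in positive cells of both AG and both AG_CPI mice. In NO_AG none of the 11 and 27 cells with a Gzmc UMI had Gzma, which leaves room for shares as high as 27.3% and 11.1%. In AG the 34 and 16 Gzmc-positive cells had a Gzma level of 69.7 and 45.0, against 14.7 and 14.2 in the others, and in AG_CPI 87 and 114 such cells had 188 and 171, against 72.8 and 60.6. These are differences between cells of a mouse that share a library, and they carry no test.

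The genes whose pattern was most like that of Gzma were ranked by Pearson's r of log2 levels over 42 profiles of a mouse and cell class, among 9987 genes. The profiles share libraries, depth and the large gap between CD8 T cells and other classes, so r is a description. The highest were Lcn4 (r = 0.91), Klrc1 (0.88), Klrc2 (0.88), the receptor gene Slamf7 (0.85), Plac8 (0.83), Gzmk (0.83), Itgax, which encodes CD11c (0.83), Ifitm1, an interferon-induced membrane protein (0.82), Cd8b1 (0.82) and Cd86 (0.82). By Spearman's rho 7 of these 10 stayed among the top 10, with CD8 T profiles left out 3 did, and without each mouse in turn 8 or 9 did. Of the granzymes, Gzmf had r = 0.76 and Gzmb r = 0.75. Perforin was less alike, with r = 0.51 for Prf1 and rank 229.

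Within CD8 T cells these genes did not all follow both steps. Ifitm1 had a level of 0.912 and 0.075 in NO_AG, 4.78 and 5.91 under AG, and 23.2 and 29.3 under AG_CPI, with no overlap at either step and a ratio of means of 4.91 from AG to AG_CPI. Lcn4 was low throughout, at 0.078 and 0.083, 0.217 and 0.181, and 0.380 and 0.346, and its groups did not overlap either. Itgax was at 0.034 and 0.084, 0.119 and 0.163, and 0.373 and 0.210, and Cd86, a costimulatory ligand, at 0.250 and 0.185, 0.526 and 0.346, and 0.615 and 0.826, again with no overlap. Plac8 was at 0.035 and 0.020 in NO_AG, 0.917 and 3.42 under AG, and 2.27 and 1.41 under AG_CPI, so AG and AG_CPI overlapped. Slamf7, at 1.49 to 2.64 in all 6 mice, overlapped between all groups.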

How the data were processed

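Skin of 6 mice was profiled with a 10x 5′ kit, per the labels' protocols, and the submitters' processing notes name Cell Ranger 3.1 and mm10. The deposited values are on a log10 scale, log10 of 1 plus a gene's UMIs per 10000 UMIs of the cell. No header states this unit: after inversion, 100% of values fell within 0.05 of a whole UMI, against 66.9% to 69.8% under a natural log. The 16158 deposited genes hold 95.4% to 96.7% of each cell library's UMIs, and cells had 1501 to 14995 UMIs. Other upstream filters are not given in the sources used here.

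Cells needed 200 genes and at most 20% mitochondrial UMIs. Of 21178 cells, 51 failed and 666 were removed as likely doublets (Scrublet in scanpy 1.11.5, the top scores, 1.38% to 3.97% of a library), which left 20461. Clustering used 2000 variable genes without Gzma, 30 components, 15 neighbours and Leiden resolution 1, and gave 46 clusters, of which 25 were named by fixed markers and 8 were lymphocyte clusters. Names ending in -like rest on markers alone. Linear values were averaged over cells per mouse and class, scaled by TMM and tested as log2(mean + 0.1) with limma 3.58.1 (trend) in R 4.3.3. The count model assumed when the tests were chosen was not used, because the deposited unit is log10. All 6 mice shared a fit with group as its term. The comparison of cells with and without Trbv13-3 had the 4 mice with antigen, with the mouse as a block. Genes needed 10 UMIs and a mean of 0.1 in 2 libraries, and a library needed 10 cells. A gene was called when its Benjamini-Hochberg adjusted p was 0.05 or less. With 2 mice a group, limma borrows the spread of each gene from the others. The fit was tested on simulated data. Single shares carry exact Clopper-Pearson 95% intervals, and a share of 0 the limit that 3 counts give. These bounds hold for counting error alone. Thinning drew 1500 UMIs from each cell.

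The genes named are Gzma, the members of 8 gene lists (91 genes, 87 with a column) and the 10 genes most like Gzma, with receptor segments, mitochondrial, ribosomal protein and sex-linked genes left out of the last. Esm1 and Gpx8 were named as neighbours on the chromosome. Gzma, the lists and the rules were chosen with earlier results of these data known. The splits by another beta segment, Trdc, Ncr1 and Xist were chosen after seeing the data. Alternatives were other pseudocounts, filters, scalings, gates, clusterings, voom on recovered UMIs, blocks and leaving out each mouse. Promoter windows were matched to RefSeq on GRCm38.p6 by symbol for 3 of 3 granzymes.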

Additional observations from a re-analysis of the deposited data

Results flagged for a closer look

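The change from AG to AG_CPI in CD8 T cells was compared between cells with and without Trbv13-3. A test of the difference itself was used (limma, mouse as a block, adjusted p at most 0.05). Of all 7411 genes 188 (2.54%) were called, among them 19 of the listed genes. The difference in log2 change, with minus without Trbv13-3, was negative for 11 of them: Ccl3 (-1.45), Ccl4 (-0.94), Ccl5 (-1.75), Gzmb (-1.25), Gzmk (-1.33), Il2rb (-0.83), Klrc1 (-1.35), Klrd1 (-0.91), Nkg7 (-0.51), Prf1 (-1.38) and Serpinb6b (-1.53). It was positive for 8: Ctsw (0.70), Hopx (0.77), Id3 (2.15), Il2 (2.59), Itgae (1.99), Lta (1.37), Tcf7 (1.92) and Tnf (1.42). Beyond Il2, each of the 19 calls was lost without at least 1 mouse, 18 of them without AG_CPI 2. With no mouse block none of the 19 was called. In cells with Trbv13-3, Id3, Il2 and Tcf7 were near the pseudocount of 0.1 already in AG.

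Gzma was found in cells outside the lymphocyte clusters of AG 2, above the level in the NO_AG mice. There 11.8% of the library's Gzma UMIs lay outside these clusters. Gzma made up 38.8% of the UMIs of Gzma, Cd3e and Cd8b1 together over all these outside cells, against 43.6% in the CD8 T cells of AG 2, those with Trdc included. Cluster 42, 53 cells that all came from AG 2 and were led by Fam13a, Ehd3 and Ccl2, had a Gzma level of 7.74, with 240 Gzma UMIs in 51 positive cells and at most 10 in a cell. The same share was 81.6% in this cluster (exact 95% interval 76.7% to 85.9%), and it was 28.1% in the 422 cells of cluster 32 and 21.7% in the 565 of cluster 34. Cluster 44, 39 cells of AG 2 led by hair keratin-associated genes, had a level of 7.76 from 52 Gzma UMIs.

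In AG_CPI 1, 91 UMIs of Ddx3y were found in 499 cells outside the lymphocyte clusters, and none in the other 5 libraries.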

How the results depend on the processing

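The Gzma levels kept their direction under every alternative run (gate, doublets, clustering, background subtraction, cell filter, pooling and each mouse left out). The log2 ratio of means moved beyond the spread between mice to 3.34 (AG against NO_AG) and 2.12 (AG_CPI against AG) with Trdc allowed in the gate, and to 2.13 (AG_CPI against AG) and 4.89 (AG_CPI against NO_AG) with pooled UMIs. The share in AG_CPI moved from 65.4% to 69.2% and 61.9% with Trdc allowed and after thinning. With CD8 T profiles left out, 3 of the 10 genes most like Gzma stayed. Leaving out each mouse gave log2 ratios of 2.80 to 3.17, 2.23 to 2.42 and 5.13 to 5.50 for AG against NO_AG, AG_CPI against AG and AG_CPI against NO_AG, 2.91 to 3.69 without and 1.22 to 2.11 with Trbv13-3 for AG_CPI against AG, and 1.04 to 2.71 (AG) and 0.10 to 0.40 (AG_CPI) for with against without Trbv13-3. Shares ranged from 3.92% to 5.65% in NO_AG, 23.4% to 34.7% in AG and 64.5% to 66.3% in AG_CPI, and 8 to 9 like genes stayed.

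Counts of called genes depended on the settings, in the order AG against NO_AG, AG_CPI against AG, AG_CPI against NO_AG. With no filter on low values, in which more genes are tested, they were 25, 1 and 84 in CD8 T cells (main 114, 12 and 248), 5, 4 and 88 without Trbv13-3 (main 51, 40 and 196), and in CD4 T cells 1 in the first and 3 in the last (main 2 and 17). They were then 4 with Trbv13-3 (main 70), 6 with against without it (main 13) and 50 for the difference of CPI steps (main 188). With voom they were 37, 7 and 124 in CD8 T cells, 19 and 24 without Trbv13-3 in the first pair, 4 and 5 in CD4 T cells in the first and last, 45 with Trbv13-3 and 102 for the difference of CPI steps. With Trdc allowed in the gate, CD8 T cells gave 195 and 7 in the first pair. With doublets kept, CD4 T cells gave 4 in the first. With no mouse block the difference of CPI steps gave 3. In gamma-delta T cells, with 12 and 23 cells in AG_CPI, 0, 621 and 862 of 7297 genes were called in limma (170 at an unadjusted p under 0.05 in the first), with voom 7, 0 and 40, and 0 in both AG_CPI comparisons with a pseudocount of 0.5, no filter or the replicate block. No result rests on the gamma-delta calls. The cause of these moves was not tested.

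Leaving out each mouse gave counts of 43 to 167, 1 to 10 and 63 to 309 in CD8 T cells, 20 to 105, 9 to 89 and 81 to 311 without Trbv13-3, 1 to 7, 1 to 3 and 1 to 16 in CD4 T cells, and 0, 0 to 3895 and 0 to 4095 in gamma-delta T cells. It gave 6 to 235 with Trbv13-3, 9 to 16 for with against without it and 19 to 364 for the difference of CPI steps. Where an arm had 1 mouse left, that mouse was assumed to vary like the others. Over all settings, 31 of the 125 calls of listed genes were never lost, 94 were lost at least once and 0 reversed.

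Replicate numbers did not pair the mice: deviations of same-numbered CD8 T profiles correlated at -0.09 (AG and NO_AG), -0.17 (AG and AG_CPI) and 0.006 (AG_CPI and NO_AG). With the replicate block, CD8 T cells gave 114, 10 and 240 calls, and CD4 T cells 5 and 28 in the first and last comparisons.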

Other observations

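Esm1, the neighbour beyond Gzmk on chromosome 13, was named after its values were seen. In CD8 T cells its level was 0 in both NO_AG mice, 0.012 and 0.066 under AG, and 0.266 and 0.192 under AG_CPI, from 0, 0, 5, 12, 53 and 49 UMIs. Both AG_CPI mice lay above both AG mice. Its r with Gzma over the 42 profiles was 0.81, which ranked 12 of 9987 genes. Gpx8, the neighbour on the other side of Gzma, had a CD8 T level of at most 0.018 in every mouse.

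CD8 T cells with Trdc but no Trbv13-3 UMI, 21 and 50 cells under AG, and 142 and 69 under AG_CPI, had a Gzma level of 32.4 and 45.9 under AG, and 107 and 146 under AG_CPI. In the cells with both segments it was 35.7 and 27.1 under AG, and 104 and 99.5 under AG_CPI. The Trdc-positive cells thus had high Gzma with or without a Trbv13-3 UMI in these 4 mice.

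Small clusters outside the lymphocytes also held Gzma in AG_CPI 2: cluster 40, 45 of its cells, led by Fam13a and Abi3bp, had a level of 9.74, and cluster 45, 21 melanocyte-like cells, had 8.73. Gzma made up 70.8% and 61.7% of the UMIs of Gzma, Cd3e and Cd8b1 there, against 71.1% in the CD8 T cells of that mouse, those with Trdc included. In the 83 cells of cluster 14 of this mouse, led by Msx1 and Cldn10, it made up 86.8%, at a level of 3.73. A single cell held 118 of the 184 Gzma UMIs of this cluster, so its share and level rest largely on that cell. Over all cells of this mouse outside the lymphocyte clusters Gzma made up 65.9%. In AG_CPI 1 the 16 cells of cluster 31, plasmacytoid dendritic-like, had a level of 18.7 from 60 UMIs in 4 positive cells.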
